A study of Mus musculus with 18 samples.

Results

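The genes described here encode the machinery that docks, primes and fuses synaptic vesicles, together with relatives of the same name that work in other membrane traffic. They were taken by symbol from the array annotation. The families were the synaptotagmins, syntaxins, vesicle-associated membrane proteins (VAMPs), complexins, Unc13 and Rims proteins, syntaxin-binding proteins, SV2 proteins and every symbol beginning with Rab3. Added by name were Syn1, Syn2, Syn3, Syp, Snap25, Snap29, Snap91, Nsf, Napa, Napb, Rph3a, Doc2b, Bsn and Pclo. The rule gave 77 genes of 12393 on the array, each read from its probe set with the highest mean, and 65 of them were among the 8320 genes that passed the filter on low values. Because the Rab3 stem is matched by letters, 6 of the 65 are Rabs with numbers from 30 to 37, which are not Rab3 proteins. The 12 genes below the filter were Cplx3, Cplx4, Rab32, Rab38, Rab3il1, Stx19, Stxbp6, Syt10, Syt6, Syt7, Sytl1 and Sytl4. Rims1, Unc13c, Sv2b and Sv2c, which also belong to the release apparatus, had no probe set with their symbol alone and were not analysed here.

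In nerve terminals a vesicle fuses when the SNARE proteins synaptobrevin (Vamp1 and Vamp2), syntaxin 1 (Stx1a) and SNAP-25 zip into a bundle that draws the vesicle and plasma membranes together. Unc13 and Rims proteins and the large scaffolds bassoon and piccolo ready vesicles at the active zone, complexins clamp the partly zipped bundle, and synaptotagmins trigger fusion when calcium enters; NSF and its SNAP adaptors then take the bundle apart. In the cerebellum these proteins serve the granule cell synapses onto Purkinje cells and the inhibitory output of Purkinje cells and interneurons.

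The arrays read cerebellum of adult male mice aged 80 ± 5 days. Mice were wild-type, lacked apolipoprotein D (ApoD, a lipid-binding lipocalin that is induced in stressed brain), or carried a human ApoD transgene that the series' design text describes as over-expressed in neurons. Each genotype was injected into the peritoneum with 200 µl of saline, either plain or carrying 30 mg/kg of paraquat, a herbicide that generates superoxide, and the cerebellum was taken after 6 h. Titles name the paraquat arrays, and the others were taken as saline from the protocol. Each of the 6 groups held 3 arrays, each array a pool of RNA from 3 mice, 9 mice per group, so that errors describe variation among pools and not among single mice. The mouse strain, the promoter that drives the transgene and the number of founder lines are not given in the sources used here. In a bulk tissue sample, fewer cells of a type and less RNA per cell cannot be told apart.

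The cerebellar markers Zic1, Gabra6, Pcp2 and Calb1 averaged log2 values of 13.00, 12.50, 13.23 and 12.74 over all arrays. The mouse Apod signal lay between 8.22 and 9.83 on the knock-out arrays, between 12.38 and 12.76 on the wild-type arrays and between 12.13 and 12.35 on the transgenic arrays. Whether the mouse probes can read the human transgene is not stated. The second knock-out paraquat array stood apart, with a median log2 of 6.98 against 7.10 to 7.15 on the others and an SD of 2.06 where the others had 2.20 to 2.28. On the third transgenic arrays the 3' probe set of the mouse pyruvate carboxylase control exceeded the 5' set by 1.82 (saline) and 1.95 (paraquat). This difference was 2.25 on that knock-out array and 2.63 to 3.16 elsewhere. Where leaving out the third transgenic arrays together, or that knock-out array, ended a member's call, the value without them is given beside it.

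The promoters of 4 members are shown because their genes mark the main differences described below: Syp and Syn1 were higher in the transgenic, Unc13b was lower, and Stxbp3 was lower there and rose with paraquat. Each line gives the 250 bases before the RefSeq start on GRCm38.p6, 5′ to 3′ in the direction of transcription. Syp lies on the plus strand at chrX:7638330-7638579, Syn1 on the minus strand at chrX:20920919-20921168, Stxbp3 on the minus strand at chr3:108840503-108840752 and Unc13b on the plus strand at chr4:43058703-43058952. For Unc13b the start used lies inside the gene, whose RefSeq span begins at position 43046193. Capitals mark motif matches on either strand, with the first base counted back from the start.
Syp: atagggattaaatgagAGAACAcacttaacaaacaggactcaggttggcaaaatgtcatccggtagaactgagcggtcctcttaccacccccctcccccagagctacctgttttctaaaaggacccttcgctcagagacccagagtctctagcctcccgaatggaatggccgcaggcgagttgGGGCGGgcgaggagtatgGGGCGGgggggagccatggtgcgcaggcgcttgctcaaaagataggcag
Syn1: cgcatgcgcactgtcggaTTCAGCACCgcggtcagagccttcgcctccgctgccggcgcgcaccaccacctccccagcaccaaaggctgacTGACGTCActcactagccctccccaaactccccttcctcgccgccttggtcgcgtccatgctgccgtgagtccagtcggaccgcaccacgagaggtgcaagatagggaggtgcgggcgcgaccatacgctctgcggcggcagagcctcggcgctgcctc
Stxbp3: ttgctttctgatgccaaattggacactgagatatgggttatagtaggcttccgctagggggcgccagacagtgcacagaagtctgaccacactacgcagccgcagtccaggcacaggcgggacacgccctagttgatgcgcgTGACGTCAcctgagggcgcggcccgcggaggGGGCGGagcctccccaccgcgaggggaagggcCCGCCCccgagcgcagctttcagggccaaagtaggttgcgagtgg
Unc13b: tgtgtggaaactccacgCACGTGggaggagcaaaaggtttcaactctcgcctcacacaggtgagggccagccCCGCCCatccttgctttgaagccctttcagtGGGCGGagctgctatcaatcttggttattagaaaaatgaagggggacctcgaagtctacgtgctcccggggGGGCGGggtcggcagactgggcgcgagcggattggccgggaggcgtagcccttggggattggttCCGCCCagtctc
In Syp the capitals are an arm of the glucocorticoid response element (AGAACA) 234 bases before the start and Sp1 boxes (GGGCGG) at 67 and 49 bases. In Syn1 they are the left arm of the element bound by the repressor REST (TTCAGCACC) at 232 bases and the full cyclic AMP response element (TGACGTCA) at 159 bases. Stxbp3 holds the full cyclic AMP response element at 108 bases and Sp1 boxes at 77 and 45 bases. Unc13b holds an E-box (CACGTG) at 233 bases and Sp1 boxes at 178, 147, 76 and 12 bases. No match overlaps another of those marked.

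Promoters from 250 bases before to 50 bases after a start were found for 59 of the 77 members and for 27025 genes in all. At least 1 listed start held an Sp1 box in 41 members (69.5%) against 38.2% of all genes. The full cyclic AMP response element was in 3 members, Napa, Stxbp3 and Syn1, against 2.03% of all genes. The left arm of the REST element was in Syn1 and Unc13a, against 0.433% of all genes. A TATA box (TATAAA) was in 3 members (5.08%), Rab3b, Stx2 and Stx3, against 15.7% of all genes. Of the members with a promoter, 9 were called higher and 10 called lower in the transgenic than in wild-type, and the Sp1 box was in 6 of the 9 and 8 of the 10. A match of letters is a description of the sequence and not a binding site.

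The question asked of the transgenic arrays was whether ApoD over-expression alters the cerebellar transcriptome. Averaged over treatments, 3 of 6 vesicle protein genes and 3 of 12 synaptotagmin and Doc2b genes were called higher in transgenic than wild-type cerebellum. In either group 0 were called lower. Of 15 trafficking syntaxins and VAMPs, 5 were called lower and 0 higher. The groups themselves were not tested. Of those 5, Stx17 lost its call with the mean of probe sets, and Stx4a and Stx5a lost theirs without the third transgenic arrays. Rph3a, Syt1, Syt13 and Syp had the largest higher log2 differences, from 1.39 down to 0.58. Stx3, Pclo and Stxbp3 had the largest lower ones, from -0.78 to -0.76, although other probe sets gave 0.38 for Pclo and -0.07 and 0.10 for Stx3. Calls required p under 0.05 in limma after Benjamini-Hochberg adjustment over all genes. By this rule 12 members were called higher and 13 lower, 25 of 65 (38.5%), where 31.4% of all genes tested were called (10.8% higher and 20.6% lower), so that the members were called at about the rate of the array. The median log2 difference was 0.02 over the members and -0.03 over all genes. Within both treatments the 3 transgenic values lay above all 3 wild-type values for 7 members and below them for 10, together 26.2% of members against 19.1% of all genes (6.15% above and 12.9% below). After quantile normalisation 20 members were higher and 12 lower, and after centring each array on its median 23 and 12. With the mean of a gene's probe sets 21 were higher and 10 lower. The shares of all genes under these settings are not given.

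**Figure D1:**
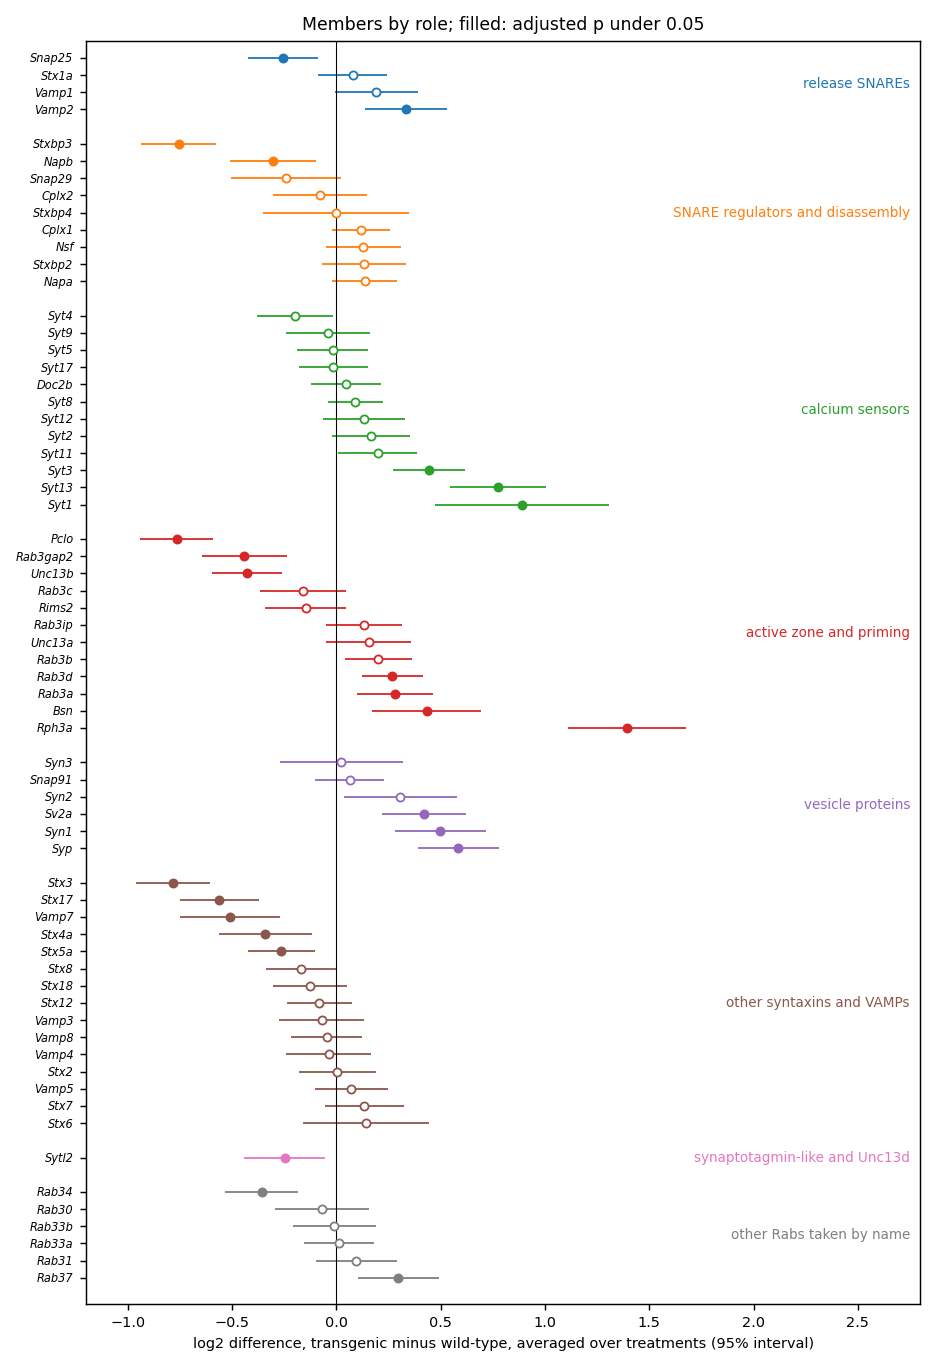
Log2 difference of transgenic minus wild-type for the 65 measured members, averaged over treatments, with 95% confidence intervals, grouped by role; filled points have an adjusted p under 0.05. The vesicle proteins all lie at or above 0, Rph3a stands out at 1.39, and the filled points among the other syntaxins and VAMPs all lie below 0.

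Among the 4 measured release SNAREs 1 was higher and 1 lower, where 10.8% of all genes were called higher and 20.6% lower. Vamp2, the most abundant synaptobrevin of the brain, read 11.17, 11.03 and 11.18 in wild-type saline and 11.38, 11.46 and 11.54 in transgenic saline. It read 10.92, 10.82 and 11.15 in wild-type paraquat and 11.37, 11.30 and 11.23 in transgenic paraquat. The transgenic values lay above wild-type under either treatment, and the difference was 0.33 (SE 0.09, adjusted p = 0.0113), with 0.46 for its other probe set. Snap25, the SNARE that adds a pair of helices to the bundle, read 13.68, 13.73 and 13.60 in wild-type saline, 13.53, 13.26 and 13.39 in transgenic saline, 13.36, 13.58 and 13.59 in wild-type paraquat and 13.11, 13.34 and 13.37 in transgenic paraquat. The groups met under paraquat but not under saline, and Snap25 was lower by 0.26 (log2 difference -0.26, SE 0.08, adjusted p = 0.0192); leaving out 1 array at a time raised the adjusted p to as much as 0.059. Vamp1 at 0.19 (adjusted p = 0.138) and Stx1a at 0.08 (adjusted p = 0.476) did not pass. Their other probe sets gave 0.11 and 0.27.

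Of 9 SNARE regulators and disassembly factors, 2 were lower and 0 higher, near the shares of all genes (20.6% lower and 10.8% higher). Stxbp3 encodes Munc18c, which pairs with syntaxin 4 in secretion outside the synapse. It read 8.61, 8.70 and 8.49 in wild-type saline and 8.48, 7.99 and 8.10 in transgenic saline. Under paraquat it read 9.54, 9.61 and 9.35 in wild-type and 8.46, 8.44 and 8.28 in the transgenic. The transgenic arrays lay below wild-type under both treatments, narrowly so under saline, and the averaged difference was -0.76 (SE 0.09, adjusted p = 9.21e-06). Its other probe set gave -0.31. Napb, an adaptor for NSF, was at -0.30 (SE 0.10, adjusted p = 0.0244), but its other probe sets ranged from -0.36 to 0.04 and the mean over them gave -0.17 (adjusted p = 0.188). Without the third transgenic arrays it was at -0.21 (adjusted p = 0.133). The genes that hold or take apart the bundle at the synapse did not pass: Cplx1 was at 0.12, Cplx2 at -0.08, Nsf at 0.13 and Napa at 0.13, with adjusted p from 0.18 to 0.606. Their other probe sets gave 0.20 and 0.45 for Cplx1, 0.29 for Nsf and -0.01 for Napa. Snap29, Stxbp2 and Stxbp4 were at -0.24, 0.13 and 0.00 and did not pass either.

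The calcium sensors held 3 higher and 0 lower genes of 12, where 10.8% of all genes were called higher and 20.6% lower. Syt1, the fast calcium sensor of many forebrain synapses, read 8.26, 7.99 and 8.30 in wild-type saline and 8.73, 8.49 and 9.72 in transgenic saline. It read 7.77, 8.62 and 7.89 in wild-type paraquat and 8.58, 8.96 and 9.68 in transgenic paraquat. The third transgenic array was the highest under both treatments, and a wild-type paraquat array overlapped the transgenic ones. The difference of 0.89 (SE 0.20, adjusted p = 0.00252) was 0.55 (adjusted p = 0.0102) without the third transgenic arrays, and the other probe set gave 0.67.

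Syt13, a synaptotagmin that lacks the calcium-binding residues, read 7.85, 7.76 and 7.90 in wild-type saline and 8.27, 8.56 and 9.11 in transgenic saline. Under paraquat it read 7.68, 7.91 and 7.76 in wild-type and 8.32, 8.53 and 8.73 in the transgenic. All 6 transgenic arrays were above all 6 wild-type and all 6 knock-out arrays, with a difference of 0.78 from wild-type (SE 0.11, adjusted p = 6.71e-05). Syt3, a sensor with high calcium affinity, was higher by 0.44 (SE 0.08, adjusted p = 0.000639). Its 6 transgenic values ran from 7.87 to 8.29 and its 6 wild-type values from 7.52 to 7.79, without overlap. Syt2, the fast sensor of hindbrain and cerebellar terminals, did not pass, at 0.17 (adjusted p = 0.165), although its other probe sets gave 0.48 and 0.79. Doc2b, a sensor linked to spontaneous release, was at 0.04 and did not pass, although its other probe set gave 0.61. Syt4, Syt5, Syt8, Syt9, Syt11, Syt12 and Syt17 lay between -0.20 and 0.20 and did not pass. Other probe sets of Syt4, Syt11 and Syt17 ran from -0.06 (Syt4) to 0.34 (Syt11).

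Active zone, priming and Rab3 genes went both ways, 4 higher and 3 lower of 12, where 10.8% of all genes were higher and 20.6% lower. Rph3a encodes rabphilin-3A, an effector that binds Rab3 on vesicles. It read 8.46, 8.18 and 8.39 in wild-type saline and 9.88, 9.61 and 9.56 in transgenic saline. Under paraquat it read 8.03, 8.07 and 8.21 in wild-type and 10.09, 9.57 and 8.98 in the transgenic, and on the knock-out arrays it lay between 7.81 and 8.60. Every transgenic array exceeded every array of the other genotypes, and the difference from wild-type was 1.39 (SE 0.13, adjusted p = 2.3e-06), a 2.63-fold higher level and the largest of any member in either direction. It was 1.56 (adjusted p = 8.36e-08) without the third transgenic arrays. Rab3a, the main vesicle Rab of the brain, was higher by 0.28 (SE 0.09, adjusted p = 0.0196), Rab3d, better known from secretory granules, by 0.27 (SE 0.07, adjusted p = 0.0069), and the scaffold gene Bsn by 0.43 (SE 0.13, adjusted p = 0.013). Without the third transgenic arrays Rab3a was at 0.22 (adjusted p = 0.0967).

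On the lower side of that group stood Pclo, Unc13b and Rab3gap2. Unc13b, which encodes the priming factor Munc13-2, read 6.78, 6.94 and 7.03 in wild-type saline and 6.61, 6.52 and 6.32 in transgenic saline. Under paraquat it read 6.67, 6.87 and 6.69 in wild-type and 6.09, 6.48 and 6.38 in the transgenic. The genotypes did not overlap under either treatment, and the difference was -0.43 (SE 0.08, adjusted p = 0.000707). Rab3gap2, a subunit of the complex that switches Rab3 off, was at -0.44 (SE 0.10, adjusted p = 0.00241). Pclo, the gene of the scaffold piccolo, read 9.77, 9.88 and 9.79 in wild-type saline and 9.23, 8.91 and 8.99 in transgenic saline, with 9.61, 9.88 and 9.78 against 9.00, 9.14 and 8.85 under paraquat. The difference was -0.77 (SE 0.08, adjusted p = 6.21e-06) with no overlap, yet the other Pclo probe set gave 0.38, the opposite sign, and their mean -0.19 (adjusted p = 0.202). The direction for Pclo therefore differs by probe set. Unc13a, Rims2, Rab3b, Rab3c and Rab3ip did not pass, with values of 0.15, -0.15, 0.20, -0.16 and 0.13.

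Vesicle proteins held 3 higher and 0 lower genes of 6, and all 6 differences were positive, with a median of 0.36. Over all genes 10.8% were called higher and 20.6% lower. Syp encodes synaptophysin, an abundant protein of the vesicle membrane. It read 11.33, 11.33 and 11.45 in wild-type saline and 11.89, 12.01 and 12.07 in transgenic saline. Under paraquat it read 11.23, 11.21 and 11.42 in wild-type and 11.82, 11.96 and 11.72 in the transgenic. All transgenic arrays lay above all arrays of the other genotypes, and the difference was 0.58 (SE 0.09, adjusted p = 0.000164), with 0.32 for the other probe set. Syn1, whose product synapsin I tethers reserve vesicles, was higher by 0.50 (SE 0.10, adjusted p = 0.00154), with wild-type values from 10.48 to 10.73 and transgenic values from 10.84 to 11.35. Sv2a, the vesicle protein bound by levetiracetam, was higher by 0.42 (SE 0.10, adjusted p = 0.00285), although the third transgenic paraquat array at 10.14 fell within the wild-type range of 10.04 to 10.26. Syn2 at 0.31 (adjusted p = 0.0796; 0.70 for its other probe set), Snap91, a clathrin adaptor of vesicle retrieval, at 0.06, and Syn3 at 0.02 did not pass.

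**Figure D2:**
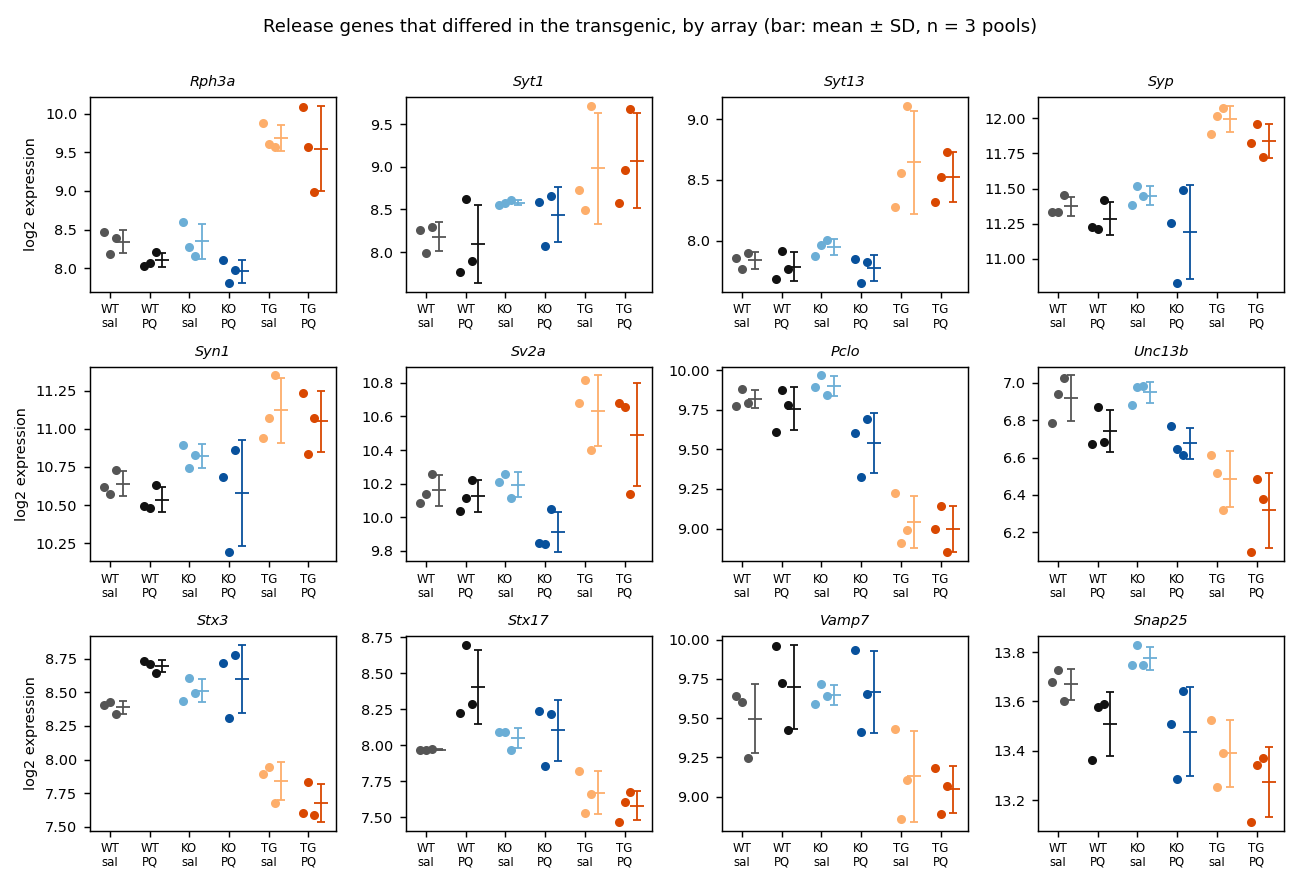
Log2 expression by array for 12 members in the 6 groups (WT wild-type, KO knock-out, TG transgenic; sal saline, PQ paraquat; points are pools, bars mean ± SD, n = 3; each panel has its own axis, which does not start at 0). Rph3a, Syt13 and Syp lie higher on every TG array than on any WT or KO array, and Stx3 and Pclo lie lower, while Syt1 is raised most on the third TG array of each treatment.

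The syntaxins and VAMPs of general membrane traffic held 0 higher and 5 lower genes of 15. Over all genes 10.8% were called higher and 20.6% lower. Stx3, a syntaxin of apical membranes and ribbon synapses, read 8.41, 8.42 and 8.34 in wild-type saline, 7.89, 7.95 and 7.68 in transgenic saline, 8.73, 8.71 and 8.64 in wild-type paraquat and 7.61, 7.84 and 7.59 in transgenic paraquat. No transgenic array reached a wild-type or knock-out value, and the difference was -0.78 (SE 0.08, adjusted p = 6.03e-06). Its other probe sets gave -0.07 and 0.10, and the mean over all of them -0.25 (adjusted p = 0.0204). Stx17, the autophagosomal syntaxin, was at -0.56 (SE 0.09, adjusted p = 0.000192), but only 1 of its 3 other probe sets was negative and the mean gave -0.12 (adjusted p = 0.234). Vamp7, which fuses late endosomes and lysosomes, was lower by 0.51 (log2 difference -0.51, SE 0.12, adjusted p = 0.00267), with -0.49 for its other probe set. Stx4a, a plasma membrane syntaxin, was at -0.34 (adjusted p = 0.0195) and Stx5a, the Golgi syntaxin, at -0.27 (adjusted p = 0.0129). Without the third transgenic arrays Stx4a and Stx5a had adjusted p of 0.0768 and 0.0757. The other 10, Stx2, Stx6, Stx7, Stx8, Stx12, Stx18, Vamp3, Vamp4, Vamp5 and Vamp8, lay between -0.17 (Stx8) and 0.14 (Stx6) and did not pass. Their other probe sets ran from -0.45 (Vamp4) to 0.56 (Stx6). Of the remaining members, Sytl2, which encodes a partner of Rab27, was at -0.25 (adjusted p = 0.0454), a call that 14 of its alternatives did not keep. Among the 6 Rabs outside the Rab3 group, Rab34 was lower (-0.36, adjusted p = 0.00345) and Rab37 higher (0.30, adjusted p = 0.0213). Rab37 was at 0.22 (adjusted p = 0.109) without the third transgenic arrays. Rab30, Rab31, Rab33a and Rab33b, at -0.07, 0.10, 0.01 and -0.01, did not pass.

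The 27 measured genes of the release core, a narrower list of synaptic proteins, had a median difference of 0.13, with 8 higher and 4 lower. The 8 were Vamp2, Syt1, Bsn, Rab3a, Rph3a, Syn1, Syp and Sv2a, and the 4 were Snap25, Napb, Unc13b and Pclo. A share of 44.4% was called, where 31.4% of all genes were.

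Other values moved with the transgenic arrays. The signal of 18S ribosomal RNA was 6.59 to 7.82 on the transgenic arrays and 7.54 to 8.79 on the others. The 3' minus 5' difference of the Gapdh control sets was -0.16 to 0.07 on the transgenic arrays, below 0 on 4 of 6, and 0.03 to 0.24 on the others. All 3 measured choroid plexus markers, Ttr, Folr1 and Kl, were lower than in wild-type, with a list mean between 7.23 and 9.68 on the transgenic arrays and between 9.78 and 10.04 on the wild-type arrays. Myelin markers were called higher for 4 of 9 and lower for 0, granule neuron markers higher for 1 (Cbln1) and lower for 1 (Gabra6) of 10, and Purkinje markers lower for 2 (Calb1 and Pcp4) of 9. Of 5 markers of brain stem and forebrain neurons, Dbh and Hoxb5 were higher and Slc17a6 lower. Astrocyte markers were higher for 3 and lower for 1 of 11, microglial markers lower for 2 of 8, endothelial markers higher for 2 and lower for 1 of 5, and interneuron markers higher for 1 of 8. Of all genes 31.4% were called. The called share was 20% for granule neuron, 22.2% for Purkinje, 25% for microglial and 12.5% for interneuron markers. It was 36.4% for astrocyte, 44.4% for myelin, 60% for endothelial, 60% for brain stem and forebrain and 100% for choroid plexus markers. The part of all these values in the differences of the release genes was not tested. Leaving out the third transgenic arrays gave 22 called members, 11 higher and 11 lower.

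The comparison of transgenic with wild-type was then made separately for each treatment, which shares no arrays between the 2 results. Under saline 5 members were higher and 4 lower, 9 of 65 (13.8%), where 6.36% of all genes were called (1.98% higher and 4.38% lower). Under paraquat 6 were higher and 8 lower, 14 of 65 (21.5%), where 19% of all genes were called (4.64% higher and 14.3% lower). The higher genes were Rph3a, Syp and Syt13 under both, Sv2a and Syt3 under saline, and Syt1, Syn1 and Rab3d under paraquat. The lower genes were Pclo, Stx3, Stxbp3 and Unc13b under both, and Stx17, Vamp7, Rab3gap2 and Rab34 under paraquat. Under saline, leaving out the third transgenic arrays gave -0.37 for Stxbp3 (adjusted p = 0.143) and -0.35 for Unc13b (adjusted p = 0.129). Over the alternatives the saline call was lost for Stxbp3 in 9 of 15, for Unc13b and Sv2a in 7 of 15 each and for Stx3 in 4 of 15. With the mean of probe sets Stx3 was at -0.17 under saline (adjusted p = 0.384), and Pclo at -0.25 under saline and -0.14 under paraquat was called under neither. Without the third transgenic paraquat array Syt1 was not called under paraquat. Of 65 members 51 (78.5%) had the same sign under saline and paraquat, as did 78.8% of all genes, and the members' differences correlated at Pearson's r = 0.90 across genes (0.76 over all genes), which are not independent replicates. Of the members called under either treatment 16 of 16 had the same sign under both, as did 1622 of 1698 called genes over the array. After quantile normalisation or median centring 9 members were higher and 4 lower under saline; under paraquat 12 and 9, or 13 and 8. The count under saline was 4 without the first or the second wild-type saline array, 14 without the first transgenic saline array and 17 without the knock-out array that stood apart, which enters only through the shared spread. Under paraquat it was 9 without the first wild-type paraquat array.

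**Figure D3:**
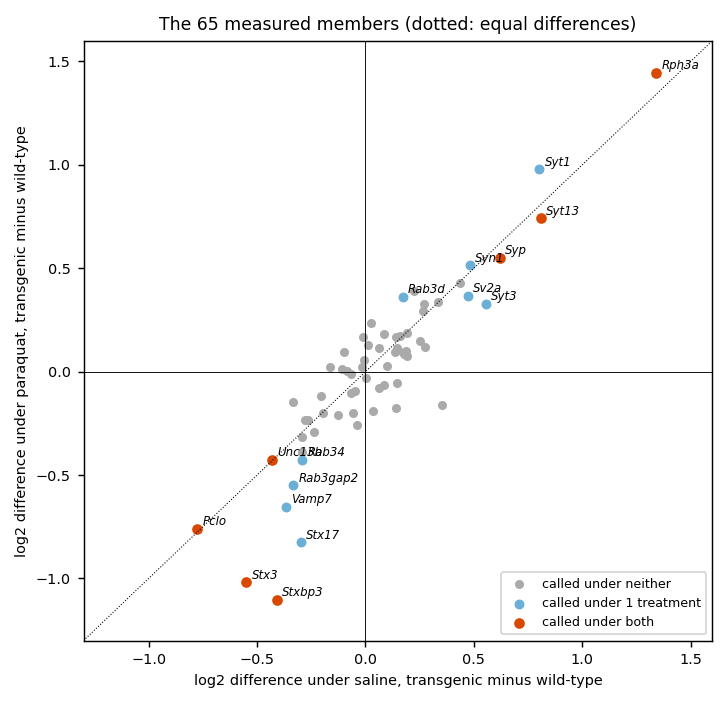
Log2 difference of transgenic minus wild-type for the 65 members, under saline on the x axis and under paraquat on the y axis; colours give the number of treatments under which a member was called, and the dotted line marks equal differences. Rph3a is at 1.34 and 1.45 and Syp at 0.62 and 0.55, near the line, while Stxbp3, at -0.41 and -1.10, Stx3 and Stx17 lie below it. Each gene is read from its probe set of highest mean, and other probe sets are not plotted.

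Against the ApoD knock-out, which shares the transgenic arrays with the comparison above, 18 members were higher and 8 lower in the transgenic, 26 of 65 (40%), where 30.4% of all genes were called (15.9% higher and 14.6% lower). Rph3a was at 1.46 against the knock-out and 1.39 against wild-type, Syp at 0.59 and 0.58, Stx3 at -0.80 and -0.78, and Stxbp3 at -0.70 and -0.76. Syn2, the gene of synapsin II, read 10.08, 9.89 and 9.88 in knock-out saline and 10.85, 10.78 and 10.12 in transgenic saline. Under paraquat it read 9.97, 9.53 and 9.81 in the knock-out and 11.09, 10.57 and 10.25 in the transgenic. The transgenic arrays lay above the knock-out ones, with a difference of 0.75 (SE 0.13, adjusted p = 0.00047), against 0.31 from wild-type. Its other probe set gave 0.65 against the knock-out and 0.70 against wild-type. Syt2 (0.28, adjusted p = 0.0231), Rab3b (0.34, adjusted p = 0.00274), Syt11 (0.26), Syt12 (0.29), Rab3ip (0.29) and Stx6, a syntaxin of the trans-Golgi (0.40, adjusted p = 0.0418), were also higher than in the knock-out. Without the knock-out array that stood apart Stx6 was at 0.25 (adjusted p = 0.0855), and its call was lost in 9 of 20 alternatives. Without the third transgenic arrays Syt11 was at 0.22 (adjusted p = 0.088) and Vamp2 at 0.28 (adjusted p = 0.0542), against 0.29 with them. The other probe sets of Syt11 gave 0.21 and -0.07, and its mean over probe sets 0.14 (adjusted p = 0.227). Those of Syt2 gave 0.49 and 0.79. Syt1, at 0.52 (adjusted p = 0.0548), was not called there.

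The paraquat arrays asked how the cerebellum responds within hours to oxidative stress. In wild-type, 2 members rose and 0 fell, Stxbp3 and Rab31, where 2% of all genes tested were called (1.53% higher and 0.469% lower). Neither is a core gene of synaptic release. Stxbp3 read 8.61, 8.70 and 8.49 after saline and 9.54, 9.61 and 9.35 after paraquat, without overlap, a rise of 0.90 (SE 0.12, adjusted p = 0.000147). Rab31, which directs traffic between the trans-Golgi and endosomes, read 9.90, 9.85 and 10.03 after saline and 10.62, 10.54 and 10.70 after paraquat, a rise of 0.69 (SE 0.13, adjusted p = 0.00553). The other probe sets of Stxbp3 and Rab31 gave 0.42 and 0.54. The next in order, Stx17, was at 0.44 (adjusted p = 0.104). The 27 core genes lay between -0.31 (Unc13a) and 0.35 (Rims2) with a median of -0.06, 0 of them called.

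In the knock-out the same 2 genes rose and 2 other members fell, where 2.26% of all genes were called (0.793% higher and 1.47% lower). Stxbp3 read 8.72, 8.68 and 8.63 after saline and 9.45, 9.19 and 9.28 after paraquat, a rise of 0.63 (SE 0.12, adjusted p = 0.00668). Rab31 read 9.97, 9.88 and 9.91 after saline and 10.64, 10.17 and 10.62 after paraquat, a rise of 0.56 (SE 0.13, adjusted p = 0.0271). Both kept the paraquat values above the saline values. Unc13a, the main Munc13 priming factor, read 8.45, 8.50 and 8.42 after saline and 7.85, 7.55 and 8.15 after paraquat, and fell by 0.60 (SE 0.14, adjusted p = 0.0238). Sytl2 fell by 0.52 (SE 0.13, adjusted p = 0.0384). The array that stood apart held the lowest value of both genes that fell. Without it Unc13a was at -0.45 (adjusted p = 0.0921) and Sytl2 at -0.41 (adjusted p = 0.137), while Stxbp3 at 0.69 and Rab31 at 0.71 stayed called. The median member was at -0.15 and the median gene at -0.09, and after centring each array on its median they were at -0.04 and 0.02, with 2 members higher and 1 lower. The count was 1 without any 1 of the 3 knock-out saline arrays, 2 without the first or the second paraquat array and 7 without the third, and fitting only the knock-out groups gave 0. The mean over probe sets gave 0.47 for Stxbp3 in the knock-out (adjusted p = 0.104), and Rab31 lost its call there without any 1 of the 3 saline arrays or the first paraquat array.

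**Figure D4:**
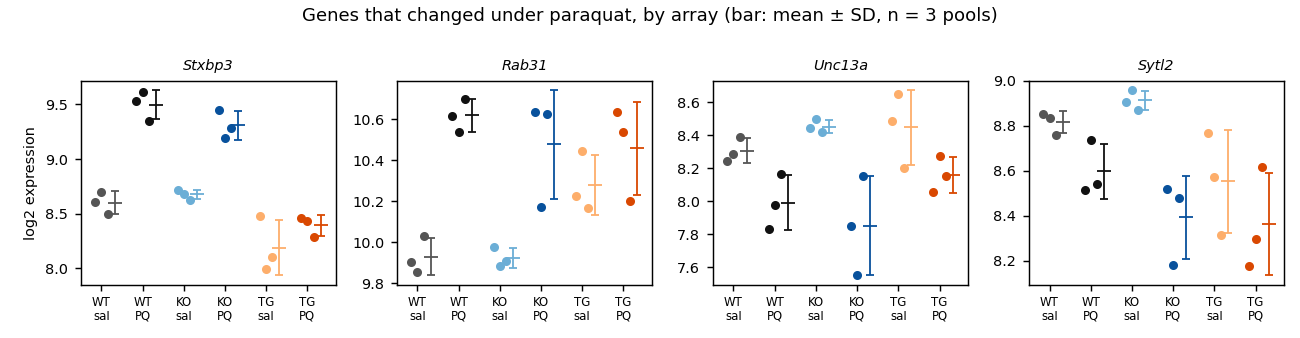
Log2 expression by array of the 4 members called under paraquat in wild-type or knock-out (WT wild-type, KO knock-out, TG transgenic; sal saline, PQ paraquat; points are pools, bars mean ± SD, n = 3; each panel has its own axis, which does not start at 0). Stxbp3 and Rab31 lie higher after paraquat on every WT and KO array, and for Stxbp3 the TG arrays stay between 7.99 and 8.48 under both treatments.

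In the transgenic 0 members were called under paraquat by limma, as were 0% of all genes, and 0 members had an unadjusted p under 0.05, as had 1.42% of all genes. Array weights gave 4. Unc13a was at -0.29 (SE 0.14, unadjusted p = 0.0518), Stxbp3 at 0.20 (SE 0.12) and Syt5 at -0.17, and Rab31 at 0.18. For the difference of the paraquat effect between transgenic and wild-type, 0 members were called by limma, where 0.18% of all genes were, and 4 had an unadjusted p under 0.05, as had 4.54% of all genes. These were Stxbp3 at -0.70 (95% interval -1.05 to -0.34, adjusted p = 0.186), Stx17 at -0.53, Stx3 at -0.47 and Rab31 at -0.51 (adjusted p = 0.663). Other probe sets gave -0.49 for Stxbp3 and -0.33 for Rab31. Those of Stx17 gave -0.32, -0.01 and 0.01, and those of Stx3 -0.12 and 0.07. Over the alternatives the adjusted p for Stxbp3 ran from 0.0125 with array weights to 0.671. Between knock-out and wild-type the paraquat effect differed for 0 members and 0% of all genes by limma, with Stx17 at -0.38 (adjusted p = 0.868), Snap29 at -0.47 and Pclo at -0.30, and 1 member had an unadjusted p under 0.05, as had 1.78% of all genes. The array that stood apart held the lowest knock-out paraquat value of Stx17, Snap29 and Pclo.

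Loss of ApoD was the last comparison, made under each treatment and on average. By limma 0 members were called under saline, where 0.024% of all genes were, 0 under paraquat, where 0.012% were, and 0 on average, where 0.18% were. At an unadjusted p under 0.05 the counts were 1, 5 and 2, against 1.55%, 13.2% and 9.18% of all genes, and with array weights 1 was called under saline and 3 on average. Syn2 had the smallest p in all 3. It read 10.35, 10.41 and 10.32 in wild-type saline and 10.30, 10.23 and 10.20 in wild-type paraquat, and all 6 knock-out values given above lay below these. The averaged difference was -0.44 (SE 0.13, 95% interval -0.72 to -0.17, adjusted p = 0.258). The other Syn2 probe set gave 0.05 on average, 0.11 under saline and -0.01 under paraquat, and did not show this difference. Under saline Cplx2 followed at 0.28 and Syt17 at -0.19, under paraquat Stx1a at 0.27 and Stx17 at -0.30, and on average Syt17 at -0.20 and Syn3 at 0.27. On the array that stood apart Syn3 read 7.54, against 6.44 to 6.60 on the other knock-out arrays. Stx1a read 8.24 there, against 7.77 to 7.88. That array also held the lowest knock-out paraquat value of Stx17. These differences are not given without it. Under paraquat the median member was at -0.14 and the median gene at -0.12; centring moved the median gene to 0.01, and omitting the array that stood apart moved it to -0.01.

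Presynaptic partners outside the list, such as transporters that load vesicles, clathrin and dynamin proteins, liprins and calcium channel subunits, were counted in the same fits, with 49 tested. Against wild-type on average, 17 were higher and 7 lower in the transgenic, 49% where 31.4% of all genes were called. The largest higher differences were those of Erc1, an active zone scaffold (0.59, SE 0.09), Bin1, an amphiphysin (0.54, SE 0.10), Sncb, the gene of beta-synuclein (0.52, SE 0.10), and Atp6v0a1, a proton pump subunit (0.40, SE 0.11). On the lower side were Doc2a, a calcium sensor (-0.53, SE 0.12), and Slc17a6, a vesicular glutamate transporter (-0.50, SE 0.10). Under saline 1 partner was higher and 0 lower, 2.04% where 6.36% of all genes were called, and under paraquat 6 and 3, 18.4% where 19% were. By limma paraquat called 0 partners in wild-type, where 2% of all genes were called, and 0 in the transgenic, where 0% were. In the knock-out it called 1, 2.04% where 2.26% of all genes were called: Cacna2d2, a calcium channel subunit, at -0.64 (adjusted p = 0.0171). Both members that fell in this comparison lost their calls without the knock-out array that stood apart. Partner values come from the main fit alone, and none is given without that array. In the knock-out on average 0 were higher and 2 lower than wild-type, 4.08% where 0.18% of all genes were called, the channel subunit genes Cacna2d1 at -0.68 and Cacna2d2 at -0.56, both with adjusted p = 0.012.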

How the data were processed

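Per the submitters' processing notes the values were made with RMA (background correction, quantile normalisation and summary of probes), with no version given. The authors deposited log2 values for 22690 probe sets on each array, a scale read from their range of 3.13 to 14.9. Which arrays were normalised together is not given in the sources used here. Precision is limited by the number of arrays: the median half-width of a 95% interval was 0.27 between 2 groups and 0.19 for an averaged genotype comparison.

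Gene symbols were those of the platform table and can be outdated. Probe sets with several symbols (691) or none (1555) and 64 controls were left out. For each gene the probe set of highest mean was used, and the gene was kept if 3 or more arrays read it at or above their 40th percentile. The 18 arrays entered 1 fit of 6 group means by lmFit and eBayes in limma 3.58.1 under R 4.3.3 (12 residual degrees of freedom), and p-values, two-sided, were adjusted over all 8320 genes within each of 12 comparisons. The fit was checked on simulated data. A permutation test of 3 against 3 arrays cannot reach the threshold and was not used.

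The members, lists and tests were chosen with earlier results of these data known. Named genes were the core release genes, every called member, the 3 smallest p-values where fewer than 3 were called, and up to 6 called partners per comparison. Sytl2 and the Rabs are members by name only.

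Replicate numbers are shared between groups. The deviations of same-numbered saline and paraquat arrays correlated at 0.16, 0.13 and 0.42 in the transgenic and at 0.09, 0.15 and 0.34 in wild-type. In the knock-out they correlated at -0.09, -0.28 and -0.12. All were positive in the transgenic and in wild-type and negative in the knock-out, and only in the transgenic were all over 0.1. Alternatives were no filter, the mean of a gene's probe sets, quantile normalisation, median centring, a replicate block, a fit of the compared groups, array weights and leaving out arrays. Leaving out both transgenic arrays numbered 3, and a block within the transgenic arrays, were added after the data were seen. Scanner files were not used here. Promoters came from RefSeq on GRCm38.p6.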

Additional observations from a re-analysis of the deposited data

How the results depend on the processing

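No member call reversed under any alternative, but none of these read a gene from another of its probe sets alone. Other probe sets had the opposite sign for some calls. For Pclo, transgenic against wild-type on average, another probe set gave 0.38 against -0.77. Of 80 calls over all comparisons 44 passed under every alternative run and 36 were lost under at least 1. Fitting the compared groups alone gave 6 called members for paraquat in wild-type, 0 in the knock-out, and, for the knock-out set against wild-type, 2 under saline and 1 averaged. Array weights, which give less weight to deviating arrays, gave 7, 20 and 4 called members for paraquat in wild-type, knock-out and transgenic. For the loss of ApoD they gave 1 under saline and 3 averaged. For transgenic against wild-type they gave 39 under saline, 34 under paraquat and 44 on average, for transgenic against knock-out 42, and for the difference of the paraquat effect in the transgenic 4. Leaving out 1 array gave 1 to 7 for paraquat in the knock-out, 4 to 17 for transgenic against wild-type under saline, 9 to 20 under paraquat, 21 to 29 on average and 22 to 32 against the knock-out. With a replicate block the counts were 2, 3 and 0 for paraquat in wild-type, knock-out and transgenic, 10, 14 and 25 for transgenic against wild-type under saline, under paraquat and on average, and 28 against the knock-out. A block within the transgenic arrays alone gave 0 for paraquat there. Shares of all genes called under the alternatives, here and in the sections above, are not given. A change in the members' count can therefore not be set against the array. The causes were not tested. With the mean of a gene's probe sets every call of Pclo and Stx17 was lost, as were those of Napb on average, Stx3 and Stxbp3 in the transgenic under saline, Stxbp3 for paraquat in the knock-out, and Syt11 and Vamp2 (adjusted p = 0.0518) against the knock-out. That setting also added calls. For transgenic against wild-type on average it gave 31 members, 21 higher and 10 lower, against 25 in the main fit. Under saline it gave 10, under paraquat 15, and against the knock-out 28. Scanner background was not examined, so that signal near background could not be judged, and 12 members below the filter were not tested.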
